A study of Mus musculus with 27 samples.

Results

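Ribosome biogenesis factors are the proteins that make, modify, cut and fold ribosomal RNA and assemble it with ribosomal proteins. Members were the genes on a list of 35 such factors, together with every gene whose symbol has the form Utp plus a number and an optional letter, or Polr1 followed by a letter from a to e. All 35 listed genes were found, and the name patterns added 14 more, 9 Utp genes and 5 Polr1 genes. The 49 members are part of 23393 named genes in each deposited table. The series holds 27 samples of B16 mouse melanoma cells, 3 for each of 9 groups. The lines were B16 parental cells and B16-Tbx2-3xHA cl#02 and cl#09, clones in which the endogenous Tbx2 gene carries a 3xHA tag together with neomycin resistance, and each is 1 clone. Each line was left untransfected or was transfected with siCtrl or siTbx2 and taken after 48 h. The 18 transfected samples are the subject of 3 deposited tables, 1 per line.

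The tables give 1 level per gene, the authors' mean normalized count, and it is the value used throughout. For every gene this mean was identical in the tables of parental cells, clone 2 and clone 9 (largest difference 0), so it describes the series and no single line or siRNA. The remaining value columns hold the authors' own comparison of siTbx2 with siCtrl and were not used. No change after Tbx2 depletion is therefore described, the levels carry no error, and the depth of each library is unknown. The sources used here do not say whether the 9 untransfected samples entered the mean. All 7 melanocyte lineage markers were present, from 293.6 for Tyr, the enzyme that starts melanin synthesis, to 48045 for Dct, another enzyme of that pathway. Of 9 markers of other cell types, 8 had a mean under 10, and the exception was Col1a1, a fibrillar collagen, at 24.9. Tbx2 itself had a mean of 189.7.

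Ribosome production starts in the nucleolus, where RNA polymerase I copies the ribosomal DNA into a long precursor. Small nucleolar RNAs (snoRNAs) guide its chemical modification inside box C/D particles, which methylate ribose, and box H/ACA particles, which convert uridine to pseudouridine. The U3 snoRNA and the UTP proteins build the small subunit processome on the same precursor, other factors assemble the large subunit, and the last steps take place on the way to and in the cytoplasm. Proliferating cells spend much of their biosynthetic capacity on this pathway, and in many tumours it is under the control of Myc, a transcription factor that binds the E-box CACGTG. MITF, USF1 and USF2 recognise the same E-box.

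The promoter sequences of members that hold this E-box are shown because E-boxes and T-elements were among the sequences at which the study examined Tbx2 binding. RefSeq sequences on GRCm38.p6 cover 250 bases before to 50 bases after an annotated start and were matched for 41 of 49 members. Fbl, Npm1, Bop1, Rrp12, Rrs1, Utp11l, Utp23 and Utp6 were not matched. CACGTG, which reads the same on both strands, occurred once in each of 10 of the 41 members. The 8 with the highest levels are printed in the direction of transcription with the E-box in capitals.
Wdr43: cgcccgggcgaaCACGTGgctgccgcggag
Pno1: tgtacaaccacgCACGTGttcctct
Nop2: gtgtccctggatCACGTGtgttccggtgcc
Imp4: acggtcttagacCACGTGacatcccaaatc
Ltv1: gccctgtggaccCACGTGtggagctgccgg
Tsr1: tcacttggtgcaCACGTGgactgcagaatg
Pes1: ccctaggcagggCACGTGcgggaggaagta
Utp20: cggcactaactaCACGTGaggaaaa

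These windows lie at chr17:71616220-71616249 on the plus strand for Wdr43, chr11:17211540-17211564 on the minus strand for Pno1, chr6:125131811-125131840 (plus) for Nop2 and chr1:34439696-34439725 (plus) for Imp4. The others are chr10:13193092-13193121 (minus) for Ltv1, chr11:74898092-74898121 (plus) for Tsr1, chr11:3963965-3963994 (plus) for Pes1 and chr10:88826765-88826789 (minus) for Utp20. The windows of Pno1 and Utp20 are shorter because the promoter sequence ends there. The other 2 members with an E-box were Utp18 and Utp14b.

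Most of these E-boxes lay close to the start annotated in RefSeq. In Pes1 the first base of the motif was 2 bases downstream from the annotated start, in Wdr43 17, in Tsr1 24, in Ltv1 28 and in both Pno1 and Utp20 37. Upstream, it was 20 bases before the start in Utp18 (distance -20), 60 in Nop2 (-60), 63 in Utp14b (-63) and 121 in Imp4 (-121). All but that of Imp4 were thus in the 150 bases at the 3′ end of the window. In GENCODE M21, another annotation, the genes Wdr43 and Utp14b begin further upstream, at 71615895 and 78658038. By that annotation their E-boxes lie inside the gene and not close to its start.

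**Figure D1:**
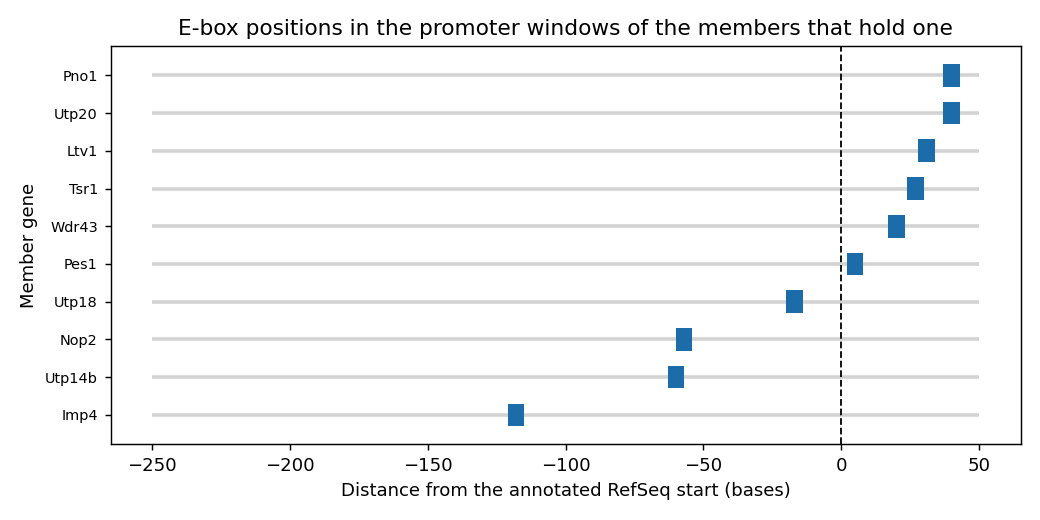
Position of CACGTG in the RefSeq promoter windows of the 10 members that hold it, as distance in bases from the annotated start (dashed line at 0); grey lines are the windows and blue bars the motif. The motif lies between -121 in Imp4 and 37 in Pno1 and Utp20, with 6 of the 10 downstream from the start.

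Of members with a promoter sequence, 24.4% held an E-box, beside 9.18% of the 17709 genes with such a sequence and 12.4% of the 8210 of these with a mean of 10 or more. Among 59 other ribosome biogenesis genes the share was 18.6% (11 genes), among 64 cytosolic ribosomal protein genes 9.38% (6 genes) and among 67 mitochondrial ribosomal protein genes 7.46% (5 genes). These shares are descriptions of sequence, a match is not a binding site, and no test was made because the members were chosen by name. By role, an E-box was found in 5 of 13 members of the small subunit processome (Wdr43, Imp4, Utp20, Utp18 and Utp14b), in 3 of 4 of the late small subunit factors (Pno1, Ltv1 and Tsr1) and in 2 of 10 of the large subunit factors (Nop2 and Pes1). None of the 5 RNA polymerase I subunits, the 2 box C/D proteins, the 4 box H/ACA proteins or the 3 nucleolar proteins Ncl, Nolc1 and Ddx21 with a promoter sequence held one. The longer form TCACGTG, on either strand, was present in 4 of the 41 members (9.76%), Nop2, Imp4, Utp20 and Utp18, beside 5.10% of genes and 7.62% of those with a mean of 10 or more. For this form the share of members was thus closer to that of expressed genes than for CACGTG. It was 3.39% among the other biogenesis genes. The T-element AGGTGTGA, on either strand, was present in 1 of the 41 (2.44%), Dkc1, where it began 2 bases after the start. It was present in 1.37% of genes, 0.877% of those with a mean of 10 or more and 0 of the 59 other biogenesis genes. The share of members thus rests on 1 gene. Levels of members with an E-box ran from 16.6 to 674.3 with a median of 300.5, and those of the 31 without one from 43.4 to 6968 with a median of 426.3, so the ranges overlapped.

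Of the factors that recognise CACGTG, Usf2 had a mean of 3200, Mitf 1794, Max, the partner of Myc, 729.1, and Myc 112.3. Tfe3, a relative of Mitf, was at 134.8 and Tfeb, another, at 45.5. Usf1 was at 17.4 and Mycn, a paralog of Myc, at 5.19.

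All 49 members had a mean of 10 or more. The lowest mean was 16.6 and the highest 6968, the median was 382.5, and the quartiles were 181.7 and 675.7. A mean of 100 or more was reached by 42 of the 49 (85.7%), beside 25.2% of all genes and 58.4% of those with a mean of 10 or more. A mean of 1000 or more was reached by 6 members, beside 751 of all 23393 genes. The median member ranked above or level with 90.8% of the 23393 genes, of which 2524 had a mean of 0. The libraries were made from mRNA 3′ ends, so a count does not grow in proportion to gene length. So that the order of genes can be read on either scale, each mean was also divided by the length of the coding sequence in kilobases (kb), taken from the longest coding sequence in GENCODE M21, and on that scale the median member was at 236.98. Division by length favours genes with a short coding sequence, so the per kb value is a check of order and not a second level. A difference between genes is described below only where it has the same direction on both scales, or with the reversal named.

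**Figure D2:**
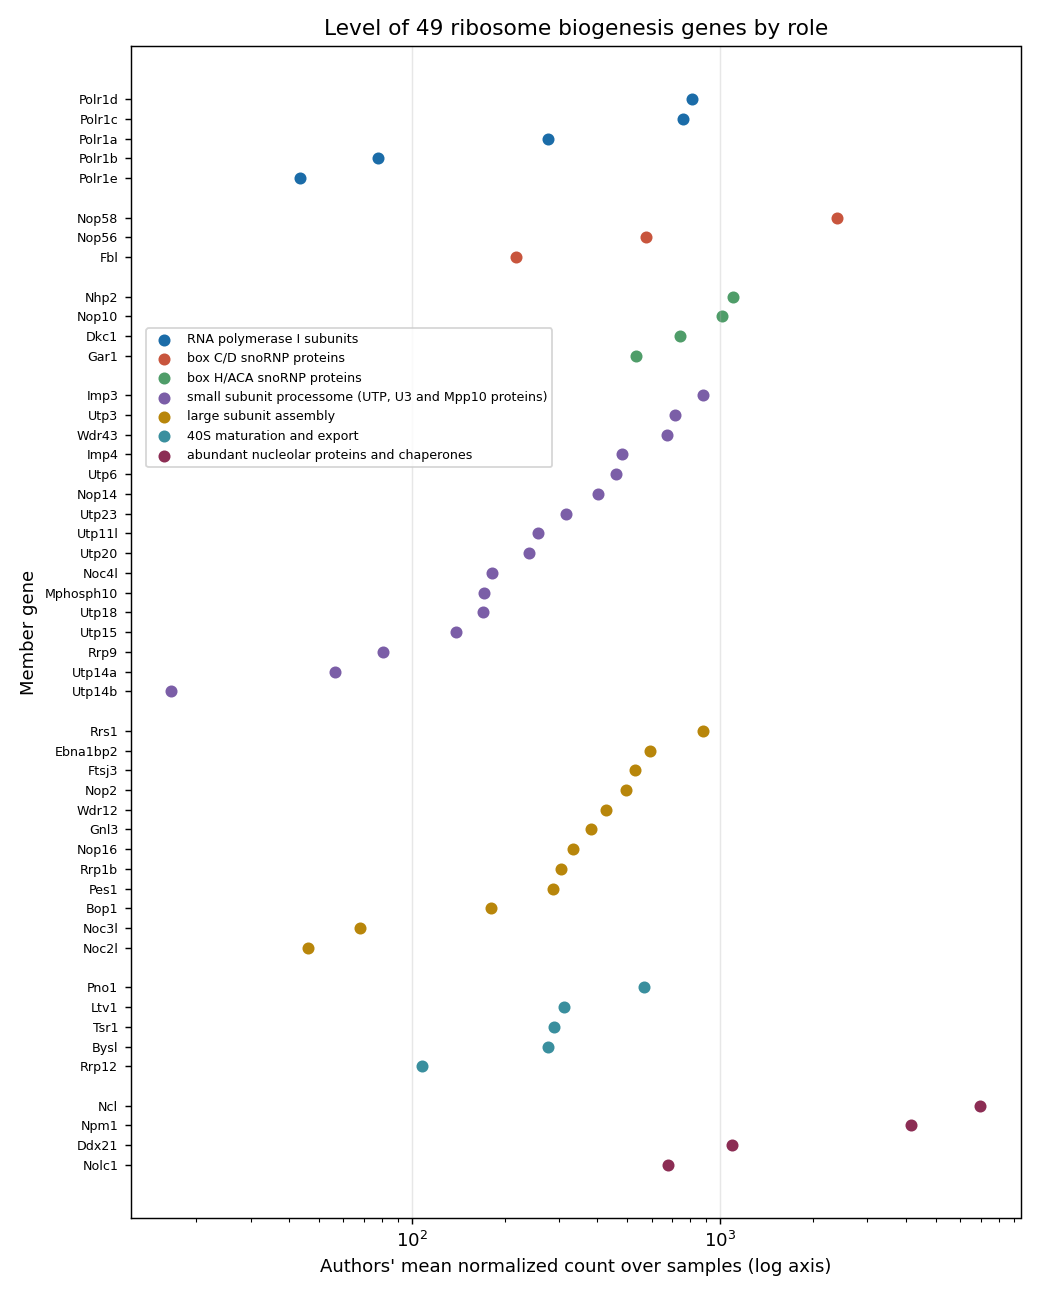
Authors' mean normalized count (log axis) of each of the 49 members, grouped and coloured by role. Ncl at 6968 and Npm1 at 4169 lie to the right of all others, and Utp14b at 16.6 is the lowest.

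The highest levels as counts were those of Ncl and Npm1. Their role was defined as abundant nucleolar proteins and chaperones, so high levels in it are not a separate result. Ncl, nucleolin, which binds ribosomal RNA and its genes, had the highest mean of all members (6968), and Npm1, nucleophosmin, a histone chaperone and component of the granular nucleolus, the next (4169). Per kb of coding sequence their order reversed, with 4759 for Npm1 and 3285 for Ncl. Together they held 34.0% of the summed mean of the members, and with Nop58 41.3%. Ddx21, an RNA helicase of the nucleolus, had a mean of 1091 (427.2 per kb), and Nolc1, a chaperone of snoRNA particles also known as Nopp140, had 675.7 (320.8 per kb), the lowest of these nucleolar proteins on both scales. Ncl lies on chromosome 1 of GRCm38 from 86344719 to 86359400, on the minus strand, and Npm1 on chromosome 11 from 33152287 to 33163206, also on the minus strand. Npm1 has processed pseudogenes in the mouse genome, and the sources used here do not say how reads that fit several copies were counted, so its level is uncertain.

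The core proteins of the box C/D particle differed in level although they work in one complex. Nop58 had a mean of 2389, Nop56 of 574.9 and Fbl, fibrillarin, the methyltransferase, of 217.5. Nop58 and Nop56 are paralogous scaffold proteins, and the mean of Nop58 was 4.16 times that of Nop56, or 4.50 times per kb. Against Fbl it was 10.98 times as high, and 6.70 times per kb. The order Nop58, Nop56, Fbl was the same on both scales. With 1 value per gene and no replicate error, these ratios have no interval.

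The proteins of the box H/ACA particle were closer to one another than those of the box C/D particle as counts, but not per kb. Nhp2 had a mean of 1103, Nop10 of 1012, Dkc1, dyskerin, the pseudouridine synthase, of 743.4 and Gar1 of 532.5. The highest was 2.07 times the lowest as counts (Nhp2 and Gar1) and 10.8 times per kb (Nop10 and Dkc1), beside 10.98 and 6.70 times for box C/D. Nop10, whose coding sequence has only 192 bases, was the highest member of the whole list per kb (5272), and the order of Nhp2 and Nop10 reversed on that scale. Dkc1, with a coding sequence of 1527 bases, was the lowest of the particle per kb (486.8).

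Subunits of RNA polymerase I differed more widely. Polr1d (811.0) and Polr1c (755.7), the assembly subunits that RNA polymerase III also uses, were above Polr1a (275.8), the largest catalytic subunit. Polr1b, the other large catalytic subunit, had a mean of 77.4 and Polr1e, a subunit specific to RNA polymerase I, of 43.4. The mean of Polr1d was 10.5 times that of Polr1b, and 89.4 times per kb, since the coding sequence of Polr1d has 399 bases and that of Polr1b 3405. Polr1e was the lowest subunit as a count and Polr1b the lowest per kb (22.7). Polr1d and Polr1c were the highest subunits on both scales, in that order.

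The ratio of the highest to the lowest member was larger for the small subunit processome than for the other 6 roles, at 52.9 as counts and 224 per kb. Both ratios rest on Utp14b (16.6), whose level is uncertain. The next lowest was Utp14a (56.4, and 24.5 per kb), and this role has the most members, 16. With Utp14a as its lowest member, the processome would not have the largest ratio on either scale. As counts the ratio was 19.1 for large subunit factors and 18.7 for RNA polymerase I subunits, for which it was 89.4 per kb. Imp3, a protein of the Mpp10 complex that binds the U3 snoRNA, was the highest of the 16 processome members (878.7). Imp4, of the same complex, had 481.9 and Mphosph10, the third protein of that complex, 171.7. This order was the same per kb, at 1592, 552.0 and 84.1. Utp3, also known as Sas10, had a mean of 716.1. Wdr43, which belongs to the UTP-A subcomplex and is the counterpart of yeast Utp5, had 674.3, and Utp15 of the same subcomplex 139.6. Utp6 and Utp18, both of the UTP-B subcomplex, had 460.3 and 169.9. In both subcomplexes the order was the same per kb, at 332.0 and 88.1 for Wdr43 and Utp15 and at 257.0 and 102.6 for Utp6 and Utp18. Nop14 had a mean of 402.8 and Noc4l, with which its yeast counterpart pairs, 181.7, again in the same order per kb (156.1 and 117.4). Utp23, needed for early cleavage of the precursor in yeast, had 317.0, and Utp11l, named Utp11 in the reference, 257.6. Utp20, a very large scaffold protein with 8367 coding bases, had a mean of 239.6 and only 28.6 per kb. Rrp9, which binds U3 directly, had 80.4.

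Utp14a and Utp14b were the lowest of the small subunit processome. Utp14a, whose yeast counterpart activates a helicase of the processome, had a mean of 56.4, and Utp14b, a retrotransposed copy of it known from the male germ line, had 16.6, the lowest value of all members on both scales (7.10 per kb). Utp14b lies on chromosome 1 from 78658038 to 78671512. Its last exon overlaps the span of Acsl3, a fatty acid ligase on the same strand with a mean of 717.4. Reads of the 2 genes may be hard to tell apart, and their part in the level of Utp14b was not tested.

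Factors of the large subunit ranged from 46.0 to 879.2, with a median of 357.9. Rrs1, which brings the 5S particle into the subunit in yeast, was the highest of 12 (879.2, and 802.9 per kb), followed as counts by Ebna1bp2 (590.6) and the methyltransferases Ftsj3 (530.2) and Nop2 (496.4). Gnl3, the GTPase nucleostemin, had 382.5, Nop16 333.2 and Rrp1b 305.1. The proteins of the PeBoW complex, Wdr12, Pes1 and Bop1, had means of 426.3, 286.8 and 180.8. Wdr12 was 2.36 times as high as Bop1, and 4.08 times per kb, with Pes1 between them on both scales. Noc3l and Noc2l were the lowest of the role, with 67.8 and 46.0. Noc2l was the lowest on both scales.

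Late small subunit factors had a median of 288.6. Bysl, Tsr1 and Ltv1, which stay on the precursor particle into its late steps, had means of 276.1, 288.6 and 312.4. Pno1, which binds near the site of the last cleavage, had 566.2, and Rrp12, a protein of nuclear export, 107.6. Pno1 was the highest and Rrp12 the lowest of this role on both scales, 761.1 and 27.7 per kb.

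**Figure D3:**
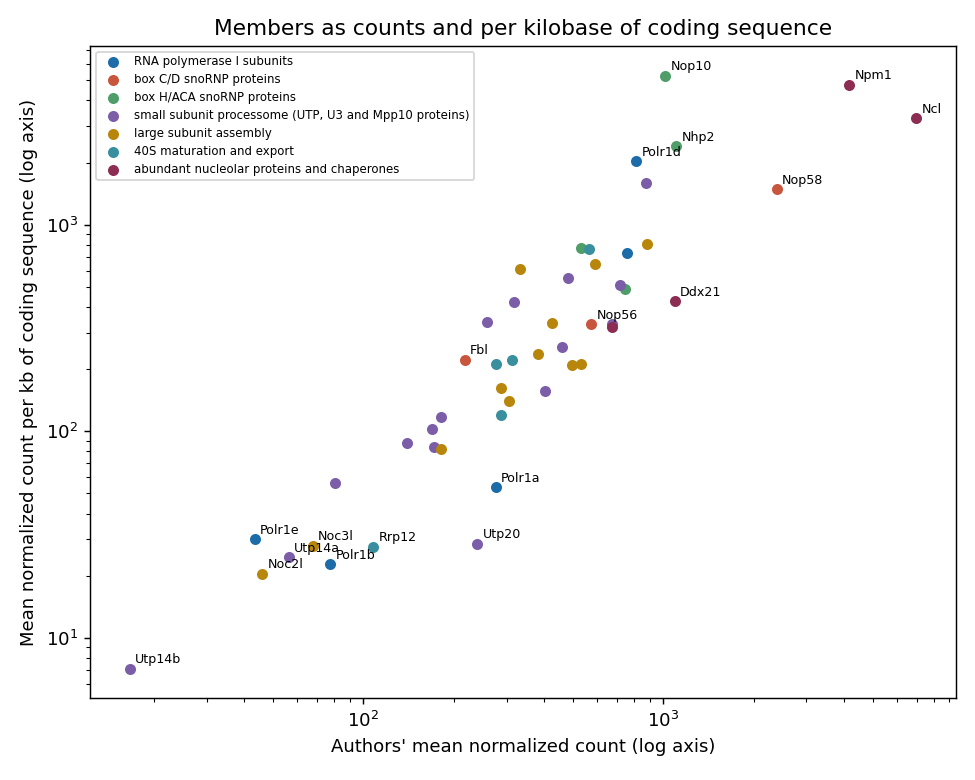
Each of the 49 members as the authors' mean normalized count (horizontal, log axis) and the same mean per kb of coding sequence (vertical, log axis), coloured by role. Nop10 is the highest per kb at 5272 although Ncl is the highest as a count at 6968, and Utp14b is the lowest on both axes.

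Beside other genes of the translation apparatus, the members lay below cytosolic ribosomal proteins on both scales. The median was 336.2 for 76 mitochondrial ribosomal protein genes and 2606 for 86 cytosolic ones, of which 80 reached a mean of 10 and 1 had a mean of 0. Low cytosolic ones included Rpl26 (0), Rps27 (5.90) and the paralog Rpl10l (0.369). The sources used here do not say how reads that fit several copies were counted, so the level and share of the cytosolic set are uncertain. Per kb the medians were 236.98 for the members, 504.1 for mitochondrial and 5073 for cytosolic ribosomal proteins. The members lay above the mitochondrial set as counts and below it per kb, a reversal on a scale that favours short coding sequences. Summed over genes, the members held 0.846% of all counts, the mitochondrial set 0.812% and the cytosolic set 6.77%. Another 69 ribosome biogenesis genes outside the member list had a median of 196.2 (127.7 per kb), lower than that of the members on both scales, and 53 of them reached a mean of 100. As counts, their highest were Bms1, a GTPase of the small subunit (1501), Dcaf13 (967.6) and Taf1d, a subunit of the RNA polymerase I initiation factor SL1 (851.8). Per kb this order reversed, with 881.8 for Taf1d, 724.8 for Dcaf13 and 389.6 for Bms1, and Eif6 was the highest (971.0). Their lowest as counts were Dimt1, a methyltransferase of the small subunit (23.6), the helicase Dhx37 (20.4) and Taf1c, another subunit of SL1 (1.95). Taf1c and Dhx37 were also the lowest per kb (0.779 and 5.92), whereas Dimt1 (25.2) was not among the 3 lowest on that scale.

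**Figure D4:**
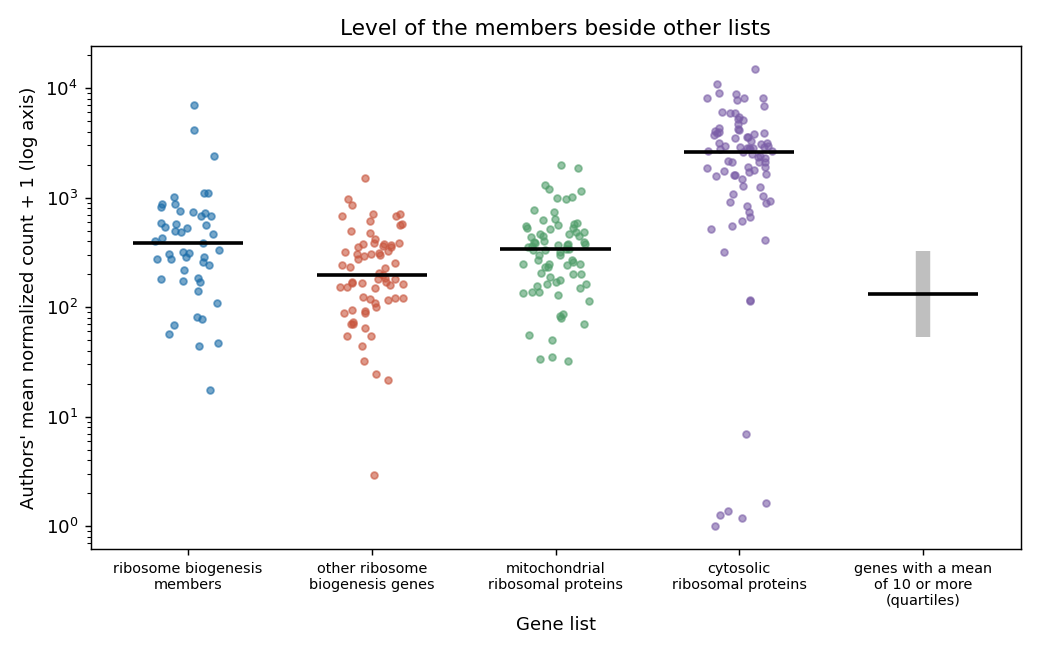
Authors' mean normalized count plus 1 (log axis) of single genes in 4 lists, with black lines at the medians, and of all genes with a mean of 10 or more as a grey bar from the lower to the upper quartile. The members' median of 382.5 is near that of mitochondrial ribosomal proteins (336.2) and below that of cytosolic ones (2606).

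Several members carry the genes of snoRNAs within their own span. In GENCODE M21, 7 of the 49 members (14.3%) contain an annotated snoRNA gene on the same strand, beside 1.21% of the 20376 genes with a position and 1.90% of the 9837 with a mean of 10 or more. Nop56 contains 5, among them Snord57 and Snord110, and Nop58 contains 4, among them Snord11 and Snord70, so both scaffolds of the box C/D particle host box C/D snoRNAs. Ncl contains 3, among them Snord82 and the H/ACA snoRNA Snora75. Gnl3 contains 3, with Snord19 and Snord69, and Wdr43 contains 3, with Snord53 and Snord92. Tsr1 contains 2, with Snord91a, and Dkc1 contains 1. The libraries read polyadenylated mRNA, so the levels of these genes are of the host mRNA and not of the snoRNAs.

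In part of the members the last exon lies within the span of another annotated gene at least in part, which may bear on counts from 3′ ends. Whole gene spans were compared, so an overlap may fall in an intron of the other gene. An annotated gene reached into the last exon of 13 of the 49, on the other strand for 12 of them and on the same strand for Utp14b. Overlaps were not counted over all genes, so whether this number is usual is unknown. The sources used here do not say whether the counting used strand. Without it, reads from a stretch that is exon in both genes could not be told apart, and shared exons were not searched for. The overlapping gene had a mean near that of the member for Nop56 (574.9, beside 448.2 for Idh3b, a mitochondrial dehydrogenase subunit). It was higher than the member for Polr1e (43.4, beside 77.6 for Fbxo10). Dkc1 and Nhp2, at 743.4 and 1103, were far above Mpp1 (120.7) and Rmnd5b (114.3), the genes that overlap them.

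The siRNA used for depletion can also pair with other mRNAs through its seed, bases 2 to 8 of the guide strand. The study lists 3 siRNAs against mouse Tbx2, and the labels do not say which was used. The guide of number 06, which stands in the title of a supplementary sheet on B16 cells, is shown with its seed in capitals, and below it are stretches of the annotated 3′ UTRs of members that hold the complement AAATTTC, which is in capitals there.
guide: aGAAAUUUgcaucaaaucc
Ebna1bp2: ggaaacaggaaAAATTTCcacctcctatt
Imp4: tgtgtgtgtatAAATTTCaaaatgcaagt
Wdr12: tgacttaccgaAAATTTCtgtttttttgg
Rrp1b: aaattgctgttAAATTTCttcaagtccag
Utp15: tgtttccagtcAAATTTCttaaatgtctg

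The seed match was found in the longest annotated 3′ UTR of 5 of the 49 members (10.2%), beside 14.1% of the 19810 genes searched, and the median length of these UTRs was 823 bases for the members and 1010 for the genes searched. It lay at base 634 of 1906 in Ebna1bp2, 1245 of 4886 in Imp4, 6705 of 8379 in Wdr12, 1912 of 2324 in Rrp1b and 2181 of 2284 in Utp15. For clones 2 and 9 the sources used here do not give the siRNA number, and the other siRNAs were not searched. A match is a feature of the sequence, and its effect on these mRNAs was not tested. Imp4 is the member that holds both an E-box in its promoter and a seed match in its 3′ UTR.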

How the data were processed

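RNA of 27 B16 samples was sequenced from 3′ ends with spike-in RNA added. Per the submitters' notes, quality was examined with FastQC 0.11.7, STAR 2.6.1d did the alignment to mm10, and featureCounts (Subread 1.6.2) gave gene counts for DESeq2 1.28.1. The deposited signal used here is what the authors' DESeq2 run wrote as the mean of normalized counts over samples, that is, counts divided by size factors. The other deposited columns hold the authors' log2 fold change, its standard error, the test statistic and the p-values of siTbx2 against siCtrl; they are the authors' own comparison and were not used. Each table has 23512 rows, of which 92 spike-in rows and 27 rows with names turned into dates were left out.

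Means were ranked and summarised per list and per kb of the longest coding sequence in GENCODE M21 (20390 genes matched). Percentiles are the share of genes at or below a value. Motifs were searched on both strands of RefSeq promoter sequences (GRCm38.p6), where a gene counts if any of its windows of 300 bases holds the motif, and the seed match in 3′ UTRs of at least 30 bases. The search for CACGTG and the ranking were tested on simulated data, with the motif planted in sequences of A and T only. Python 3.11.15, numpy 2.4.6, pandas 2.3.3 and scipy 1.17.1 were used. Members and lists were chosen with earlier results of these data known. Every member is named with its mean. Of the other biogenesis genes the 3 highest and 3 lowest are named. The planned description of protein features was not made, because no protein table was at hand. The searches for snoRNA genes, overlaps and seed matches were added after the data were seen.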

Additional observations from a re-analysis of the deposited data

How the results depend on the processing

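The tables hold 1 mean per gene, so no replicate could be left out and no test was run. No paired analysis was possible because the values carry no replicate number. The members' median of 382.5 became 481.9 without the Utp and Polr1 name patterns and 236.98 per kb, and was 382.5 again with a floor of 10 on the mean, which every member passed. The median percentile of 90.8 was 89.7 among genes with a mean above 0, 78.6 among genes with a mean of 10 or more and 86.5 per kb. Of 7 roles, 5 kept their highest member per kb, and the exceptions were the box H/ACA proteins and the nucleolar proteins. The share of members with an E-box, 24.4%, was 22.0% in the last 150 bases of the window, beside 5.68% of genes and 8.03% of those at a mean of 10 or above, and 9.76% for TCACGTG, beside 5.10% and 7.62%, so the contrast was smaller for TCACGTG. The share of genes with an E-box, 9.18%, was 12.4% once genes with a mean under 10 were left out.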
